A study of Mus musculus with 4 samples.

Results

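Among nuclei released from mouse testis, one set carried RNA of Fmo5, which encodes a flavin-containing monooxygenase, and of Ppm1l, which encodes a metal-dependent protein phosphatase, together with high levels of transition protein and protamine RNA. The set is labelled as elongating spermatid nuclei and is called Fmo5-gate nuclei in what follows. The members were chosen on measured counts. A barcode had to hold at least 1000 UMIs (unique molecular identifiers, each standing for 1 captured RNA molecule) and 500 to 5000 detected genes. It also had to show at least 1 UMI in at least 4 of 10 genes, namely Fmo5, Ppm1l, Efemp1, Gm33696, Gm6145, Impa2, Myo15, Efcab1, Gm26749 and Tmem132d, and in fewer than 3 of 7 others, namely Kcnb2, Col9a3, Gm31508, Dscaml1, Gm48312, Gm47448 and Syn2. The gate held 1348 of the 36152 nuclei within the limits on UMIs and genes.

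The study profiled whole testes of 8 weeks old males by snRNA-seq (10x Genomics, 3′ ends), in 2 WT and 2 Dhx37-/- libraries labelled as biological replicates. Dhx37 encodes a DEAH-box RNA helicase that acts in the maturation of the small ribosomal subunit. The Dhx37-/- mice, of C57BL/6 background, carried floxed Dhx37 alleles with exon 2 between the loxP sites and a Cre transgene under the Amh promoter. This promoter is active in Sertoli cells, so Cre was aimed at these and not at the germ cells described here. Whether Cre acted in any germ cell was not tested here. The WT mice were littermates, and whether they carried a floxed allele or the transgene is not given in the sources used here. Values per library are given throughout in the order WT replicate 1, WT replicate 2, Dhx37-/- replicate 1 and Dhx37-/- replicate 2.

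After meiosis, haploid round spermatids build an acrosome and a flagellum, and elongating spermatids reshape and compact their nucleus. Histones are first replaced by transition proteins (Tnp1, Tnp2) and then by protamines (Prm1, Prm2), and transcription ceases as the chromatin condenses. Much of the RNA needed late in this process is therefore made early and stored. Sertoli cells surround the spermatids and support their elongation and release.

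The 4 libraries held between 51797891 and 75611263 UMIs, with medians of 3332, 3711, 3807 and 4193 UMIs per nucleus within the limits, so both Dhx37-/- libraries were deeper per nucleus than both WT libraries. Of all UMIs, 52.0% to 60.4% lay in nuclei within the limits, and Scrublet marked 4.17% to 4.54% of these nuclei as doublets, which were kept. Between 17 and 28 barcodes were shared by any pair of libraries among all nuclei, and 0 among Fmo5-gate nuclei. WT replicate 1 stood apart in Rn18s-rs5, a transcript that overlaps ribosomal RNA, which reached 17845 CPM (UMIs of a gene per 1000000 UMIs of the class) in its Fmo5-gate nuclei and 4095, 2697 and 3005 CPM in the other libraries.

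The gate held 307, 295, 473 and 273 nuclei with 955119, 927583, 1599486 and 976422 UMIs in sum. At the threshold on the 10 genes, 118, 84, 167 and 92 members showed exactly 4 of them, and 176, 161, 292 and 234 nuclei that passed every other condition showed 3 and stayed outside. At the threshold on the 7 genes, 205, 178, 254 and 152 members showed 2 of them, and 382, 350, 387 and 264 nuclei with 3 stayed outside. Only 25, 25, 65 and 35 members showed none of the 7 genes. Most nuclei with at least 4 of the 10 genes also had at least 3 of the 7, and these 4642 nuclei are called both-lists nuclei. The gate held 21.5%, 20.0%, 25.9% and 21.7% of all nuclei with at least 4 of the 10 genes. The other classes serve for comparison. Kcnb2-list nuclei (2693) had at least 3 of the 7 genes and fewer than 4 of the 10, Foxp2-Cntn3 nuclei (3494) had RNA of both of these round spermatid genes and fell in no earlier class, and the remaining nuclei are called all other nuclei. The levels set beside each other below come from the cells on which the gate was defined, so they are a description and carry no test.

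Fmo5 RNA was low outside the nuclei with at least 4 of the 10 genes, which the rule selects in part on Fmo5 itself. Its level was 139, 282, 246 and 221 CPM in Fmo5-gate nuclei, 116, 197, 168 and 161 CPM in both-lists nuclei, and 8.68 to 14.3 CPM in Kcnb2-list nuclei. The level in barcodes without a nucleus (200 to 499 UMIs, taken as free RNA) averaged 8.57 CPM. By the estimate described below for the gate, free RNA would be 6.47% to 9.92% of the UMIs of Kcnb2-list nuclei. The part of free RNA in their Fmo5 level was not tested. Fmo5 was still seen in only 29.0%, 37.3%, 42.7% and 44.7% of Fmo5-gate nuclei, against 2.65% to 3.58% of Kcnb2-list nuclei. Impa2, which encodes an inositol monophosphatase, had a like profile, at 265, 370, 349 and 380 CPM in the gate and 24.1 to 30.4 CPM in Kcnb2-list nuclei. Both genes were higher in Fmo5-gate than in both-lists nuclei in each library.

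Ppm1l was seen in 83.1%, 74.6%, 78.4% and 74.7% of members. Its level was 1008, 597, 660 and 660 CPM in the gate, below both-lists nuclei in every library, and averaged 178 CPM in Kcnb2-list and 40.7 CPM in all other nuclei. Efcab1, which encodes an EF-hand calcium-binding protein of cilia, was likewise lower in the gate, at 733, 522, 532 and 505 CPM, than in both-lists nuclei, at 898, 720, 789 and 752 CPM. Efemp1, which encodes the matrix glycoprotein fibulin-3, stood at 346, 784, 380 and 376 CPM. The antisense RNA Gm33696 stood at 370, 798, 399.5 and 357 CPM. WT replicate 2 was thus the highest library for both genes and for Tmem132d (107, 197, 106 and 117 CPM), while WT replicate 1 was the highest for Ppm1l, Efcab1 and Gm26749. Myo15, which encodes an unconventional myosin, ranged only from 293 to 340 CPM and Gm6145 from 239.6 to 269 CPM.

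The genes that the rule keeps low were not absent. Dscaml1, which encodes a cell adhesion molecule, was seen in 67.1%, 58.3%, 55.8% and 60.1% of Fmo5-gate nuclei at 840, 489, 413 and 445.5 CPM, compared with 771 to 1174 CPM in Kcnb2-list nuclei. Kcnb2, which encodes a voltage-gated potassium channel subunit, stood at 402, 321, 284 and 208 CPM, against 560 to 1018 CPM. Col9a3, a collagen gene, and the non-coding RNAs Gm48312 and Gm47448 stood furthest below their level in Kcnb2-list nuclei. Gm47448 had 1.05, 0, 9.38 and 11.3 CPM in the gate and 72.4 to 175 CPM in Kcnb2-list nuclei. These 7 levels follow from the rule.

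**Figure D1:**
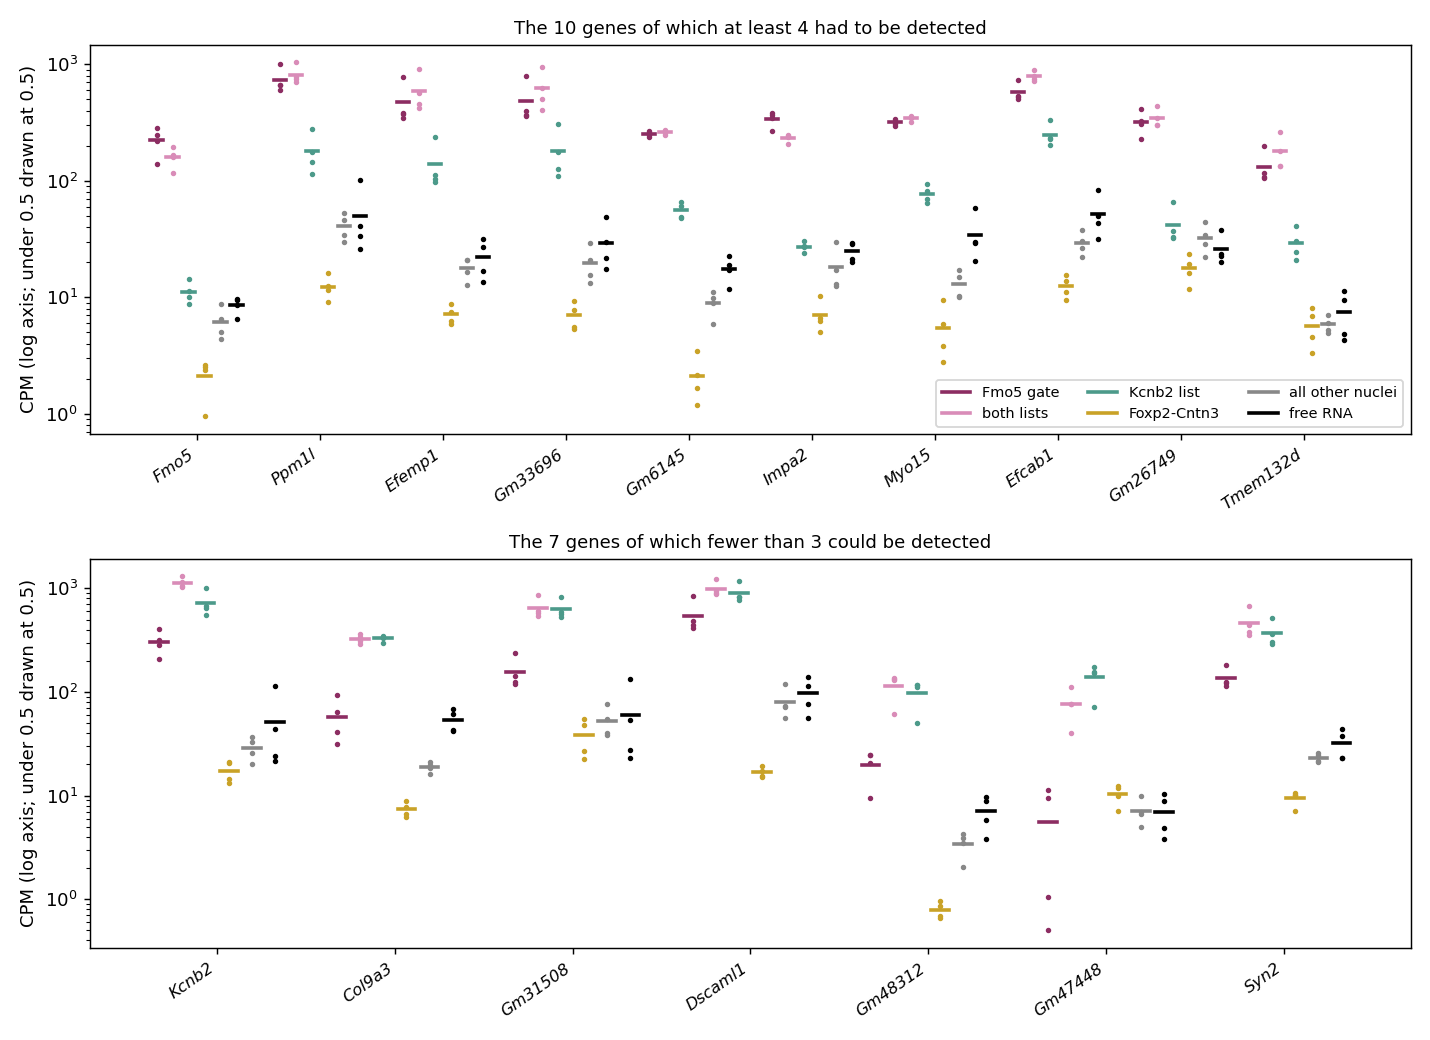
Level of each of the 17 genes of the rule by class of nuclei, in CPM on a log axis, with 1 point per library (4 points) and the mean of the 4 libraries as a bar. Among the 10 needed genes the Fmo5-gate and both-lists nuclei lie close together and above the Kcnb2-list nuclei, and the means of Foxp2-Cntn3, all other nuclei and free RNA are lower still, although single libraries cross for Gm26749, Impa2 and Fmo5. Among the 7 others the gate lies below both-lists and Kcnb2-list nuclei, as the rule requires.

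Fmo5-gate nuclei made up 3.15%, 3.66%, 5.56% and 2.77% of the nuclei within the limits. The 95% Wilson intervals, which cover counting error only, were 2.82 to 3.52%, 3.27 to 4.09%, 5.09 to 6.07% and 2.47 to 3.12%. The WT libraries lay between the Dhx37-/- libraries, so the genotypes overlapped. The means were 3.41% ± 0.361 (SD, n = 2) in WT and 4.17% ± 1.97 (SD, n = 2) in Dhx37-/-, a difference of 0.760 percentage points with p = 1 in an exact two-sided permutation test, which cannot fall below 0.333 with 2 libraries against 2. Dhx37-/- replicate 1 set the direction, since without it the difference was -0.633 percentage points, and after each nucleus was thinned to 1000 UMIs it was -0.0428. As a share of nuclei in the Fmo5 gate, both lists or the Kcnb2 list, the gate held 13.8%, 13.9%, 19.8% and 13.99%.

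Depth bears on a gate that counts detected genes. The median Fmo5-gate nucleus held 2717, 2794, 2957 and 3000 UMIs from 1694, 1720, 1819 and 1896 genes. Both-lists nuclei held 3441, 3640, 4075 and 4137.5 UMIs, and Kcnb2-list nuclei 3263, 3761, 4058 and 4200, so the gate was the shallower class in each library. Each Dhx37-/- library exceeded each WT library, by 223 UMIs and 150.5 genes on average (p = 0.333 for each, exact permutation test, the smallest p that 2 libraries against 2 allow, n = 2 per genotype). The libraries of the genotypes overlapped in median UMIs with 3 of the 10 genes needed (difference 341, p = 0.667) and with no UMI allowed in the 7 genes (difference 82.5, p = 1, the same exact permutation test). Thinning every nucleus to 1000 UMIs left 33.2%, 37.3%, 32.6% and 31.1% of the members in the gate, while 18.5%, 23.4%, 21.4% and 18.2% of both-lists nuclei then passed it. That members leave and both-lists nuclei enter follows from a rule that counts detected genes, so only the size of these shares is given here. At 1000 UMIs the median Fmo5-gate nucleus showed 781, 795, 797 and 801 genes, against 769, 789, 786 and 790 in both-lists nuclei.

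**Figure D2:**
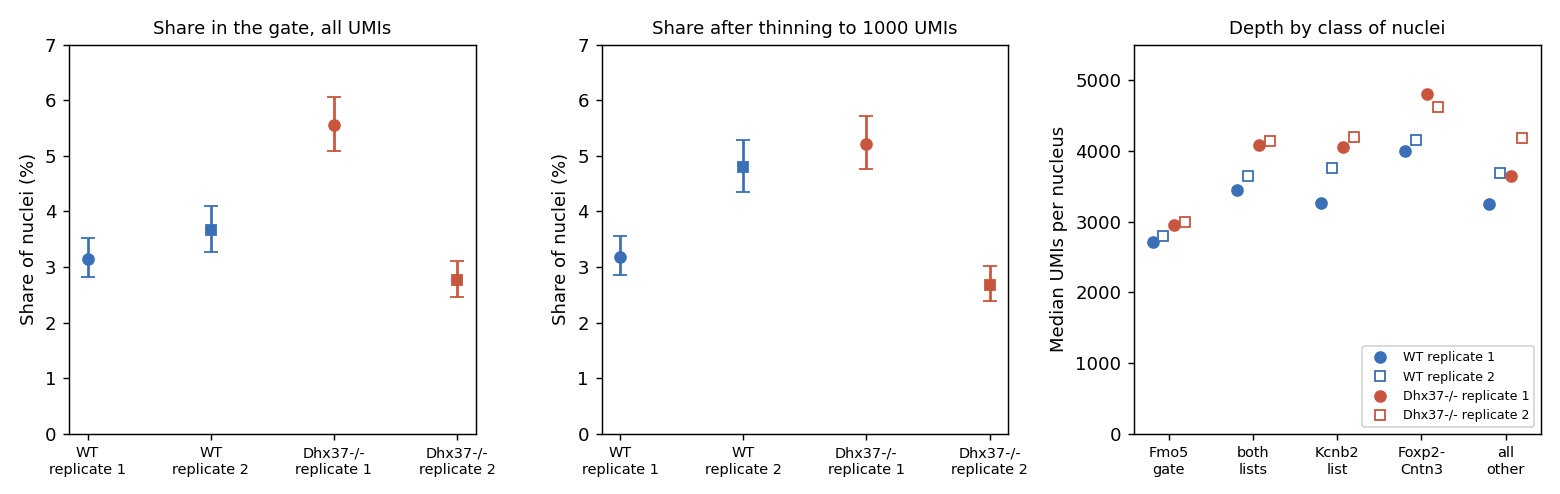
Left and centre, Fmo5-gate nuclei as a percentage of nuclei within the limits, before and after thinning to 1000 UMIs, with 95% Wilson intervals (counting error only). Right, median UMIs per nucleus by class and library. Dhx37-/- replicate 1 has the largest share before thinning (5.56%) and Dhx37-/- replicate 2 the smallest (2.77%), and the gate has the lowest median UMI count of the 5 classes in every library.

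Nuclei with markers of other cell types also passed the gate, where 3.15%, 3.66%, 5.56% and 2.77% of all nuclei did so. Of nuclei with at least 3 detected Leydig markers, 0.810%, 2.17%, 3.02% and 1.98% were in the gate, at median depths of 4582 to 6100.5 UMIs. Of nuclei with at least 3 macrophage markers, 0 of 201, 0 of 89, 1 of 173 and 0 of 169 passed, and the counts of 0 allow shares of up to 1.49%, 3.37% and 1.78%. Of nuclei with at least 3 Sertoli markers, 3.61%, 4.92%, 6.03% and 2.23% passed, but that list holds Dhh, which was itself high in the gate. Scrublet marked 10.1%, 9.49%, 9.51% and 9.16% of Fmo5-gate nuclei as doublets, compared with 7.44% to 8.84% of both-lists nuclei. If each nucleus carried as many free UMIs as the median barcode without a nucleus (364, 256, 311 and 307), free RNA would be 11.7%, 8.14%, 9.20% and 8.58% of the gate's UMIs.

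Transcripts of nuclear condensation, which are known from elongating spermatids, were among the most abundant in the gate. Tnp1, which encodes transition protein 1, stood at 4173, 4517, 6138 and 5382 CPM, and Prm1, which encodes protamine 1, at 6527, 8564, 11180 and 9435 CPM. Across classes the mean Prm1 level went down in steps from 8927 CPM in the gate to 6766 in both-lists, 4385 in Kcnb2-list, 2669 in all other and 1639 CPM in Foxp2-Cntn3 nuclei. Tnp1 had the same order, with 5053, 4038, 2769, 1435 and 787 CPM. Tnp2 reached 2326, 3118, 5145 and 4350 CPM in the gate, and Prm2 3503, 4311, 5742 and 5769 CPM. All 7 genes of the list, which also holds Prm3 and the spermatid linker histones H1f7 and H1f9, were higher in the gate than in all nuclei outside it, and than in Kcnb2-list nuclei, in each of the 4 libraries. Of 11252 genes with a mean of at least 10 CPM in the gate, 37.3% were higher than outside it in all 4 libraries and 39.6% higher than in Kcnb2-list nuclei, while 40.2% and 20.4% were lower.

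**Figure D3:**
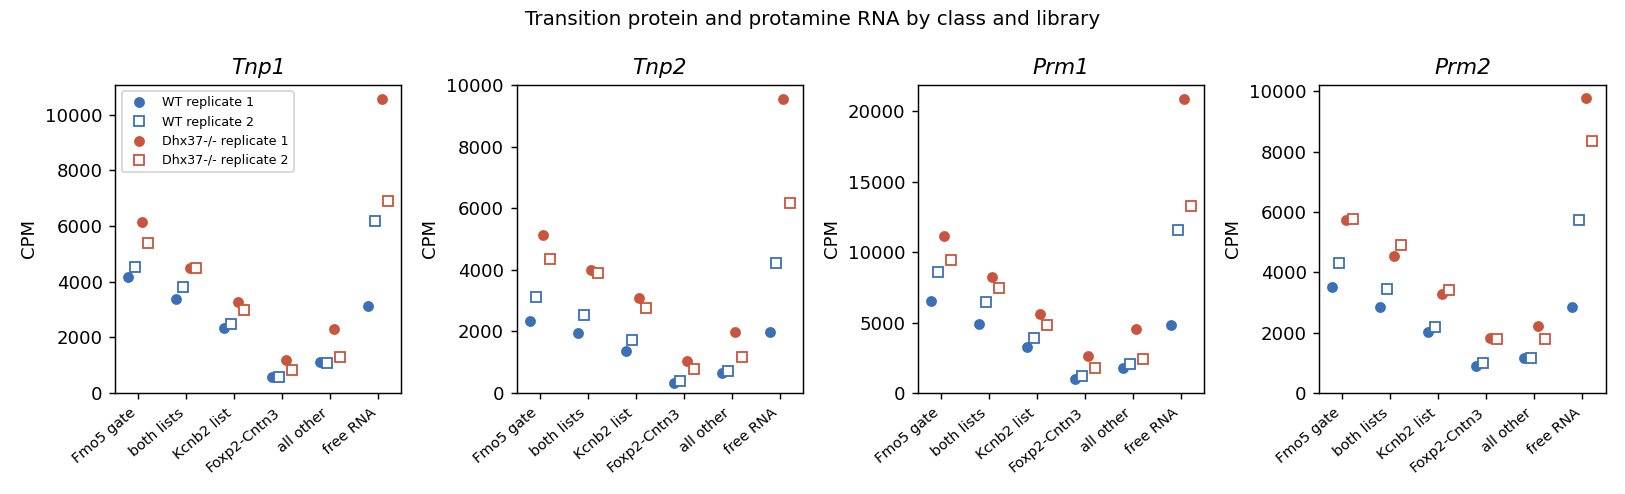
CPM of Tnp1, Tnp2, Prm1 and Prm2 by class of nuclei and in free RNA, on linear axes from 0, with 1 point per library. In each library the level is lower with each step from the gate to both-lists, Kcnb2-list and Foxp2-Cntn3 nuclei, and free RNA lies above the gate in 3 of 4 libraries.

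The same transcripts were abundant in free RNA. Summed over the 7 genes, the gate held 17478, 21594, 29575 and 26163 CPM, and free RNA 13960, 30058, 53673 and 37261 CPM. The order of the libraries was thus the same in both, with Dhx37-/- replicate 1 the highest and WT replicate 1 the lowest. The part of free RNA in the level of the gate was not tested.

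Lists of genes for other steps of spermiogenesis were mixed. The counts below are against all nuclei outside the gate and, where named, against Kcnb2-list nuclei, each in all 4 libraries. Of all genes, 39.6% were higher and 20.4% lower than in Kcnb2-list nuclei. For histone exchange, 7 of 11 genes with at least 10 CPM were higher in the gate than outside it in all libraries and 3 were lower. The counts against Kcnb2-list nuclei were also 7 and 3. Cdyl, which encodes a chromodomain protein, stood at 1331, 997, 968 and 1012 CPM, above the nuclei outside the gate at 992, 732, 682 and 786 CPM. Chd5, a chromatin remodeler of spermatids, averaged 687 CPM against 499. Both had higher means in the nearest classes. Cdyl averaged 1404 CPM in Kcnb2-list and 1442 CPM in both-lists nuclei, and Chd5 767 and 735 CPM. Summed over the list, the gate lay below both of these classes in each library. Camk4, the calcium/calmodulin-dependent kinase of spermatids, averaged 460 CPM in the gate against 1412 CPM in Kcnb2-list nuclei.

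For the acrosome and gamete fusion, 5 of 22 genes were higher and 15 lower, where 40.2% of all genes were lower. Compared with Kcnb2-list nuclei, 6 were higher and 9 lower. Spata16, a gene of acrosome formation, was among those higher than outside the gate, at 456.5, 1061, 628 and 586 CPM. Zpbp, the zona pellucida binding protein gene, averaged 165 CPM in the gate, 134 in both-lists, 169 in Kcnb2-list and 461 CPM in Foxp2-Cntn3 nuclei. For the manchette, head shaping and intraflagellar transport, 5 of 20 genes were higher and 12 lower (5 and 7 against Kcnb2-list nuclei). Spag16, which encodes a protein of the axoneme's central apparatus, stood at 704, 384, 512 and 370 CPM in the gate. It averaged 448 CPM in both-lists, 660 in Kcnb2-list and 2168 CPM in Foxp2-Cntn3 nuclei. Meig1, a gene needed for the manchette, averaged 1346 CPM in the gate and 1069 CPM outside it.

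For the flagellum, 11 of 38 genes were higher and 27 lower than outside the gate. Against Kcnb2-list nuclei 16 were higher and 5 lower (42.1% and 13.2%, where all genes had 39.6% and 20.4%). Those higher included Odf2, an outer dense fibre gene, at 964, 916, 1215 and 1206 CPM against 559 to 760 CPM outside the gate, and Ropn1, a fibrous sheath gene, at 517, 630, 691 and 654 CPM against 354 to 407 CPM. For sperm ion channels and exchangers, 0 of 13 genes were higher and 10 were lower in all libraries than outside the gate. Set against Kcnb2-list nuclei, 4 were higher and 2 lower. Catsperb, an accessory subunit of the CatSper calcium channel, had 69.1, 62.5, 83.8 and 70.7 CPM, compared with a mean of 465 CPM in Foxp2-Cntn3 nuclei.

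For sperm energy metabolism, 4 of 16 genes were higher and 7 lower (7 and 4 against Kcnb2-list nuclei). Gapdhs, the glycolytic enzyme gene specific to spermatids, had 382, 375, 561 and 526 CPM in the gate and averaged 285 CPM outside it. For kinases and phosphatases, 4 of 11 were higher and 4 lower (5 and 1 against Kcnb2-list nuclei). Tssk6, a kinase gene of late spermatids, stood at 111, 153, 212 and 205 CPM against a mean of 84.5 CPM outside the gate. For ubiquitin and cytoplasm removal, 8 of 14 were higher and 5 lower (9 and 1 against Kcnb2-list nuclei). Usp2, a deubiquitinase gene, stood at 392, 459, 425 and 413 CPM against 205 to 242.5 CPM outside the gate.

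For stored mRNA and delayed translation, 3 of 19 genes were higher and 10 lower than outside the gate. Against Kcnb2-list nuclei 7 were higher and 3 lower (36.8% and 15.8%). These shares lay near those of all genes (39.6% and 20.4%). Paip2, which encodes a repressor of poly(A)-binding protein, stood at 922, 1382, 1382 and 1306 CPM, against 491 to 720 CPM outside the gate. Pabpc1, the gene of a poly(A)-binding protein, was among the lower ones at 440, 305, 394 and 345 CPM, against 462, 371, 560 and 466 CPM. Among round spermatid transcription factors 4 of 9 were higher and 5 lower than outside the gate, and 4 were higher and 0 lower than in Kcnb2-list nuclei. Crem, an activator of haploid genes, averaged 737 CPM in the gate and 528 CPM outside it, whereas Sox5 averaged 193 CPM in the gate and 896 CPM in Foxp2-Cntn3 nuclei. The 8 round spermatid markers summed to 661 to 718 CPM in the gate, 569 to 764 in both-lists, 722 to 1041 in Kcnb2-list and 1959 to 2675 CPM in Foxp2-Cntn3 nuclei. The 10 spermatocyte markers summed to 462 to 601 CPM in the gate, 368 to 486 in both-lists, 448 to 554 in Kcnb2-list and 1366 to 1469 CPM in Foxp2-Cntn3 nuclei.

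The small subunit processome list touches the step in which Dhx37 acts. The p53 list touches a response that the study proposes to follow the loss of Dhx37 in Sertoli cells. Only 5 of 15 p53 and apoptosis genes reached 10 CPM, and 1 was higher and 2 lower than outside the gate. The higher one was Cdkn1a, which encodes the cell cycle inhibitor p21, at 44.0, 65.8, 46.3 and 49.2 CPM in the gate, compared with means of 46.4 CPM in both-lists, 15.5 in Kcnb2-list, 5.77 in all other and 1.89 CPM in Foxp2-Cntn3 nuclei. It was seen in 11.4%, 15.3%, 13.7% and 13.9% of members and in 3.25% to 5.08% of nuclei outside the gate. The lower ones were Mdm2, which encodes the ubiquitin ligase of p53, with means of 63.5 CPM in the gate and 95.2 CPM outside it, and Bbc3, which encodes the apoptosis factor Puma, with 10.3 and 28.6 CPM. Of the processome genes 7 of 22 reached 10 CPM, with 2 higher and 3 lower. Against Kcnb2-list nuclei the counts were 3 and 1 for the processome list and 2 and 1 for the p53 list. Of all genes, 37.3% were higher and 40.2% lower than outside the gate, and 39.6% and 20.4% than in Kcnb2-list nuclei. Utp20, a large processome component, stood at 66.0, 137, 109 and 74.8 CPM and averaged 35.7 CPM outside the gate.

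The genes other than those of the rule that set the gate furthest apart from the rest were 15 with at least 50 CPM in every library, each at least 4.40 times higher than outside the gate in every library. Because the gate was built on these same nuclei, their height is a description. Transcription factor genes among them were Nr4a2, an orphan nuclear receptor (61.8, 114, 134 and 134 CPM, rest 14.97 on average), Tbx5, a T-box factor (137, 208, 334 and 236 CPM, rest 42.9), and Hoxb3 (194, 167, 231 and 175 CPM, rest 35.3). Nr4a2 RNA was found in 15.3%, 26.4%, 32.4% and 31.5% of members and in 2.49% to 8.09% of nuclei outside the gate. WT replicate 1 was the lowest library for Nr4a2, Tbx5 and Ung.

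Genes of signalling were also among them. Dhh encodes Desert hedgehog, the ligand known from Sertoli cells, and reached 156, 271, 256 and 245 CPM in the gate, 32.0 CPM on average in Kcnb2-list and 43.1 CPM in free RNA. It was found in 31.3%, 41.0%, 46.1% and 45.1% of members. Members with fewer than 3 markers of any somatic cell type (Dhh left out) held 147 of its 149, 249 of 251, 393 of 410 and 229 of 239 UMIs. The members with at least 3 such markers held 3.62%, 1.98%, 11.7% and 11.2% of all UMIs of the gate. Without the latter, the 9 Sertoli markers other than Dhh still summed to 111, 70.4, 131 and 121 CPM. The source of the Dhh RNA was not tested. Il4ra, the interleukin 4 receptor alpha chain gene, had 64.9, 94.9, 85.0 and 92.2 CPM with a mean of 11.7 outside the gate. Ephb3, an ephrin receptor gene, had 122.5, 171, 91.3 and 116 CPM with a mean of 16.6. Dok2, an adaptor gene, had 125, 231, 204 and 172 CPM with a mean of 34.2.

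Ung, which encodes uracil-DNA glycosylase, stood at 121, 304, 311 and 252 CPM, above the 44.7 CPM outside the gate, and was found in 28.3%, 53.2%, 51.6% and 48.4% of members. The other leading genes were Kif1a, a kinesin motor gene (117 to 198 CPM), Mgat5b, a glycosyltransferase gene (75.4 to 129 CPM), Calml4 (130 to 220 CPM), Sectm1a (84.8 to 197 CPM), the non-coding Gm41414 and Gm16175, and ENSMUSG00002075019. In both-lists nuclei the means of these 15 genes lay between those of the gate and those of Kcnb2-list nuclei, from 42.5 CPM for Ephb3 to 173 CPM for Gm16175.

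**Figure D4:**
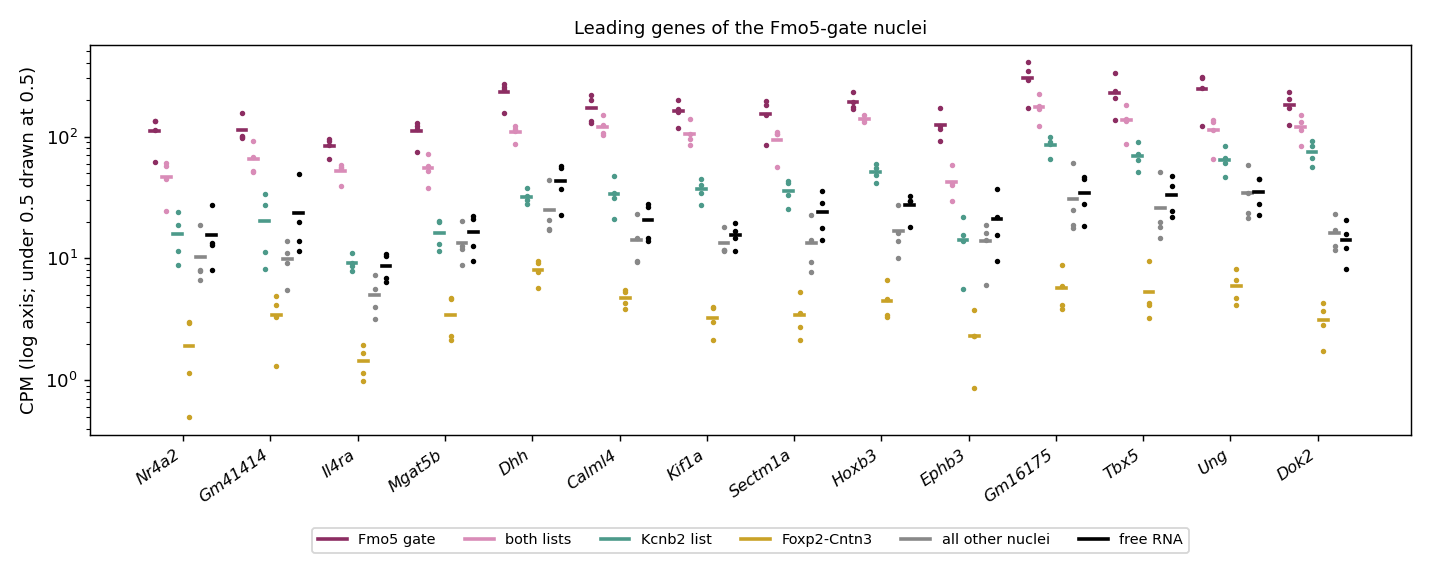
CPM on a log axis of 14 leading genes of the Fmo5 gate that carry a gene symbol, by class of nuclei and in free RNA, with 1 point per library and the mean of the 4 libraries as a bar. The mean of each gene is highest in the gate, lower in both-lists and lower again in Kcnb2-list nuclei, and lowest in Foxp2-Cntn3 nuclei.

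The members also varied among themselves. Across members of a library the number of the 10 genes detected had a Spearman correlation of 0.159 to 0.276 with the UMI count, and of -0.0612 to 0.0356 with the share of UMIs from Tnp1, Tnp2, Prm1 and Prm2 (273 to 473 nuclei per library, which share their library and its free RNA). Malat1, a nuclear long non-coding RNA, had the highest mean CPM in the gate, a scale not corrected for gene length, at 6699, 9077, 12021 and 15516 CPM. Its mean was 13732 CPM in members with 4 or 5 of the 10 genes and 6758 CPM in members with 6 or more. Prm1 averaged 8650 and 9308 CPM in the same subsets, and Nr4a2 110 and 113 CPM.

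The comparison of Dhx37-/- with WT was made on the UMI counts of the Fmo5-gate nuclei summed per library, with edgeR's quasi-likelihood test and Benjamini-Hochberg adjustment over all 11609 genes tested. It called 0 genes (0% of those tested). At an unadjusted p under 0.05, 14.3% of the genes tested passed, 8.2% higher and 6.12% lower in Dhx37-/-. DESeq2 called 17 genes, 12 higher and 5 lower. With WT replicate 1 left out the count of edgeR was 1349 and with WT replicate 2 left out 1803, where the lone WT library was taken to vary like the Dhx37-/- pair, and it was 0 with either Dhx37-/- library left out. The labels do not state whether the libraries of a genotype came from separate animals beyond naming biological replicates, so the p-values measure the spread between these libraries.

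Dhx37 itself had 7, 17, 9 and 12 UMIs in Fmo5-gate nuclei, or 7.33, 18.3, 5.63 and 12.3 CPM. Its log2 fold change was -0.67 ± 0.59 (SE, edgeR adjusted p = 0.599), and the genotypes overlapped. A 3′ tag does not show whether exon 2 is present, and Cre was aimed at Sertoli cells, so this level does not check the labels.

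With all 4 libraries and the limits of the rule, edgeR and DESeq2 called 0 of the 221 genes on the 13 lists, of which edgeR tested 190. The count in edgeR was 15 without WT replicate 1, 47 without WT replicate 2 and 5 without the upper limit on genes. The 7 condensation genes had log2 fold changes of 0.21 to 0.72 with a median of 0.34, where the median of all genes was -0.01, and 1 of them, Tnp2 (0.72 ± 0.27, SE), had an unadjusted p under 0.05 with an edgeR adjusted p of 0.291. In free RNA the same list had a median of 1.05, in Kcnb2-list nuclei 0.45 and in Foxp2-Cntn3 nuclei 0.78. The 38 flagellum genes tested had a median of -0.16, the 22 acrosome genes -0.02 and the 16 energy genes 0.31. At most 3 genes of a list had an unadjusted p under 0.05 in a direction. Of all genes tested, 8.2% passed this threshold on the higher and 6.12% on the lower side. Of the p53 list 5 of 15 genes were deep enough to be tested, with a median of 0.05. Of these, 0 had an unadjusted p under 0.05, where 14.3% of all genes tested did. With 5 genes this count cannot be set apart from that share. Of the processome list 8 of 22 were tested, with a median of 0.34 and 1 gene higher at an unadjusted p under 0.05. Of the 17 rule genes 16 were tested, with log2 fold changes of -0.72 to 0.31 and a median of -0.37, but the gate acts on them and these values are a description.

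The genes with the smallest p were Ptgds, Gstm1 and Gng12 on the higher side. Ptgds encodes a prostaglandin D synthase and had 32, 23, 374 and 123 UMIs in the gate, a log2 fold change of 2.55 ± 0.36 (SE, edgeR adjusted p = 0.134). Gstm1, a glutathione transferase gene, had 42, 28, 229 and 146 UMIs and a log2 fold change of 1.89 ± 0.29 (SE, edgeR adjusted p = 0.140). Both were of like size elsewhere, with log2 fold changes of 2.36 and 1.73 in Kcnb2-list nuclei and 2.39 and 1.73 in free RNA. Gng12, a G protein gamma subunit gene, had 6, 6, 70 and 48 UMIs and 2.75 ± 0.42 (SE, edgeR adjusted p = 0.140), but 0.54 in Kcnb2-list nuclei and 0.31 in free RNA.

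The lower side was led by uncharacterised transcripts. Gm42826 had 134, 126, 54 and 36 UMIs, a log2 fold change of -2.05 ± 0.27 (SE, edgeR adjusted p = 0.132), and -1.77 in Kcnb2-list nuclei and -2.18 in free RNA. Gm39556 had 63, 75, 36 and 22 UMIs and -1.78 ± 0.31 (SE, edgeR adjusted p = 0.150). B230303A05Rik had 46, 64, 25 and 16 UMIs and -1.95 ± 0.35 (SE, edgeR adjusted p = 0.150), with -0.76 in Kcnb2-list nuclei. For each of the 6 genes the libraries of the genotypes did not overlap. Genes picked by smallest p tend to separate in this way, so it adds no support to them. None passed the threshold in edgeR with all 4 libraries and the limits of the rule. All 6 did in DESeq2 (adjusted p = 8.42e-05 to 0.0490), and in edgeR without the upper limit on genes.

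Members with RNA of somatic cell types made up a larger share of the gate in both Dhx37-/- libraries than in both WT libraries. Members with at least 3 detected markers of the Sertoli (Dhh left out), Leydig, macrophage, fibroblast and peritubular myoid or endothelial list numbered 7, 3, 35 and 15, or 2.28%, 1.02%, 7.40% and 5.49% of the gate. The same criterion held for 8.62%, 4.33%, 13.9% and 11.5% of all nuclei within the limits. It held for 2.23%, 1.18%, 4.07% and 3.15% of both-lists nuclei, and for 1.504%, 0.624%, 4.65% and 4.89% of Kcnb2-list nuclei. The larger share in both Dhx37-/- libraries was thus not limited to the gate. The criterion counts detected markers, and both Dhx37-/- libraries were deeper per nucleus than both WT libraries. The part of depth in these shares was not tested. The gate members with somatic markers were deep, with medians of 4433, 5921, 4360 and 6336 UMIs, and carried 3.62%, 1.98%, 11.7% and 11.2% of the gate's UMIs. Sertoli markers accounted for 2, 2, 16 and 5 of them and Leydig markers for 2, 2, 15 and 10, and Scrublet marked 3, 2, 9 and 4 as doublets. The summed level of the 8 Leydig markers was 194, 196, 612 and 603 CPM in the gate and 48.9, 61.6, 157 and 104 CPM without these members. The summed level of the 9 Sertoli markers other than Dhh was 122.5, 89.5, 281 and 272 CPM in the gate and 111, 70.4, 131 and 121 CPM without them. Of the Sertoli markers Sox9 was at 0 in WT replicate 1.

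They held 55.1% of the gate's UMIs of Ptgds, 55.1% of Gstm1 and 81.5% of Gng12, and 6.57% of those of Gm42826. Without these members the log2 fold change was 2.26 for Ptgds, 1.63 for Gstm1 and -2.02 for Gm42826, while Gng12 was too low to be tested. The test then called 0 of 10728 genes, with 1165 at an unadjusted p under 0.05.

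Whether the genotype difference was the same in Fmo5-gate and in Kcnb2-list nuclei was tested with an interaction of class and genotype in edgeR, with library as a block. Of 16579 genes tested 23 were called (0.139%), and in all 23 the difference (Dhx37-/- over WT) was larger in the gate. Those with the largest interaction were Abtb2 (4.11 ± 0.71, adjusted p = 0.0117), Erbb4, a neuregulin receptor gene (3.81 ± 0.46, adjusted p = 0.000769), Gpm6b, a membrane proteolipid gene (3.63 ± 0.57, adjusted p = 0.00551), Fyn, a Src family kinase gene (3.33 ± 0.44, adjusted p = 0.00179), and Septin6, a cytoskeletal GTPase gene (3.27 ± 0.63, adjusted p = 0.0280), each as log2 ± SE. With 1 library left out, Erbb4 kept its call, while Gpm6b (adjusted p = 0.135) and Fyn (0.0688) lost it without Dhx37-/- replicate 1, and Abtb2 (0.0684 and 0.363) and Septin6 (0.351 and 0.106) without either Dhx37-/- library. On the other side 0 genes were called by edgeR, and those with the smallest p were Gm40660 (-0.79), Pdzrn4 (-0.72) and Alk (-0.91), each with an adjusted p of 0.0657.

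In the gate alone Abtb2, Erbb4, Gpm6b, Fyn and Septin6 had log2 fold changes of 2.79, 2.46, 3.12, 2.42 and 3.23. None was called there (edgeR adjusted p = 0.150 to 0.217). In Kcnb2-list nuclei the values were -1.33, -1.38, -0.45, -0.92 and 0.001. For some of these 5 genes a single nucleus held much of the RNA. Erbb4 had 15, 8, 61 and 107 UMIs in the gate, of which 1 nucleus held 26 in Dhx37-/- replicate 1 and 1 nucleus held 67 in Dhx37-/- replicate 2. Abtb2 had 4, 4, 27 and 48 UMIs, with 32 of the 48 in 1 nucleus. Gpm6b had 13, 2, 121 and 71 UMIs, with 45 of the 121 and 26 of the 71 in 1 nucleus. Fyn had 10, 6, 76 and 49 UMIs, with at most 17 of the 76 and 25 of the 49 in 1 nucleus. Septin6 had 6, 1, 51 and 44 UMIs, with at most 10 of the 51 and 19 of the 44 in 1 nucleus. The members with somatic markers held a median of 70.9% of the gate's UMIs of the 23 genes (17.1% to 87.7%), and over 50% for 20 of them, although only 1 of the 23, Wt1, stands on a somatic marker list.

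Without the members with somatic markers, and without such nuclei in the Kcnb2 list, the interaction called 0 of 15484 genes in edgeR, with 943 at an unadjusted p under 0.05, and 21 of the 23 genes were still tested. The median interaction of these 21 genes went from 2.07 to 0.34, and 3 of them turned in direction, Erbb4 (-0.036), Diaph2 (-0.057) and Mageb18 (-0.60). Fyn stood at 1.79 and Gpm6b at 1.43 without these nuclei, while Abtb2 and Septin6 were too low to be tested. Ddb2 and Auts2 were as high or higher, with 2.68 and 2.78 for Ddb2 and 1.69 and 2.29 for Auts2 before and after (edgeR adjusted p = 0.0637 for each after). Ddb2, Auts2, Diaph2 and Mageb18 were chosen after their values were seen. Ddb2, a gene of DNA damage recognition, had 4, 5, 42 and 31 UMIs, with 26 of the 42 in 1 nucleus. Without the members with somatic markers it had 3, 5, 36 and 24 UMIs, and that nucleus stayed in. Auts2 had 44, 23, 147 and 199 UMIs, of which members with somatic markers held 67.6%. Without them 11, 9, 53 and 61 UMIs were left, in 10, 4, 12 and 19 nuclei. The count of 23 also moved with single libraries, to 79 (59 higher, 20 lower) without WT replicate 1, 293 (111 higher, 182 lower) without WT replicate 2, 3 without Dhx37-/- replicate 1 and 9 (8 higher, 1 lower) without Dhx37-/- replicate 2, so the single direction did not hold in each of these fits.

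**Figure D5:**
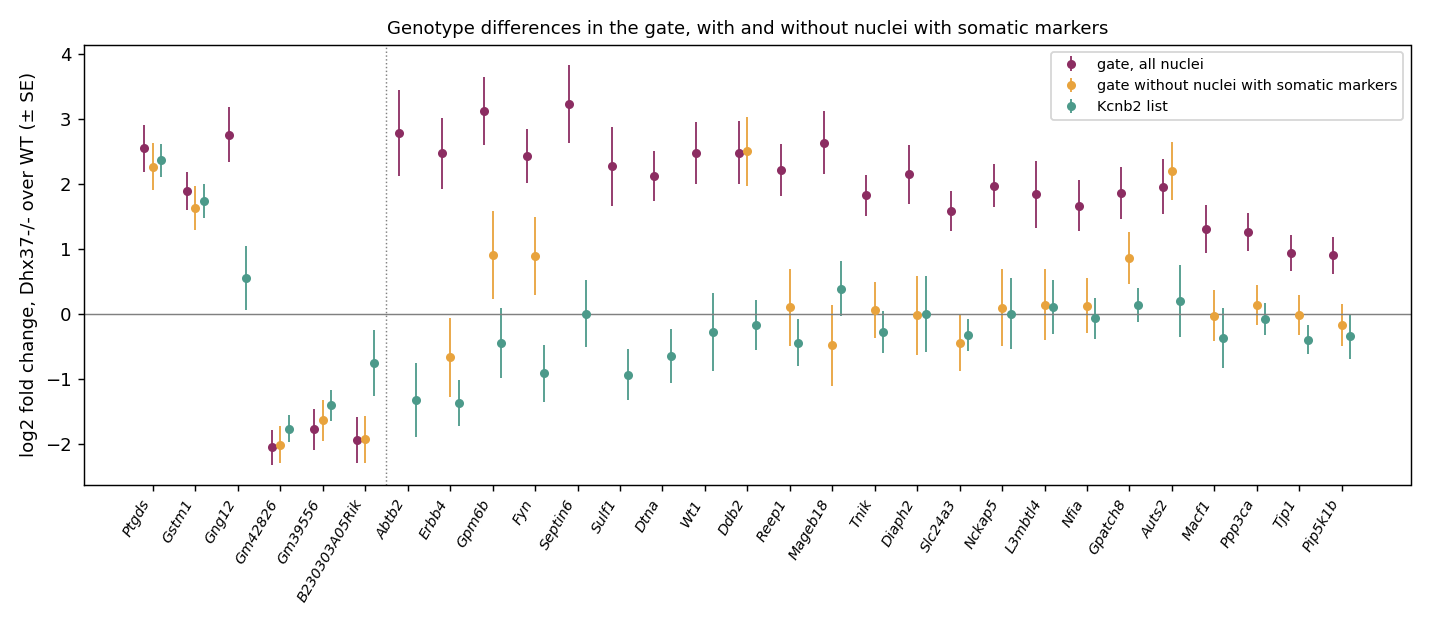
Log2 fold change (Dhx37-/- over WT, ± SE, edgeR) of the 6 genes with the smallest p between genotypes in Fmo5-gate nuclei (left of the dotted line) and of the 23 genes called in the interaction (right), in the whole gate, in the gate without members with somatic markers, and in Kcnb2-list nuclei. Right of the line the values in Kcnb2-list nuclei lie between -1.38 and 0.39, and those in the gate without those members, where still tested, between -0.67 and 0.14 except for Gpm6b, Fyn, Gpatch8, Ddb2 and Auts2, which lie higher.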

How the data were processed

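Nuclear RNA of whole testes was sequenced in 4 libraries, 2 per genotype. The authors deposited UMI counts per gene and barcode, before normalization and over all observed barcodes. The file headers name Cell Ranger 7.2.0, the study's methods Cell Ranger and mm39, and the submitters' processing notes GRCm38, mm10 and Seurat 3.1.1, so the build is not settled and no coordinates are given. Gene biotypes came from GENCODE by gene ID (52081 of 55357 genes matched).

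The members and all gene lists were chosen with earlier results of these data known. Nuclei of a library are not replicates, so sums of counts over each class of a library entered edgeR 4.0.16 in R 4.3.3 (TMM, filterByExpr, quasi-likelihood F-test, two-sided, library as a block in the interaction), with Benjamini-Hochberg adjustment and a threshold of 0.05. DESeq2 1.42.0 was an alternative. The study's test across nuclei was not used. Shares and medians were compared with exact permutation tests. The tests were tried on simulated data. Doublets were marked with Scrublet in scanpy 1.11.5 and left in. Free RNA was read from barcodes with 200 to 499 UMIs, a range chosen after the data were seen, because the planned range of 10 to 100 UMIs held only 2672 to 3926 barcodes per library. The both-lists class and the removal of members with somatic markers were also added after the data were seen.

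Named genes are the 17 rule genes and Dhx37, the 3 of smallest p in either direction between genotypes (none being called), the 5 called genes with the largest interaction and the 3 with the smallest p on its lower side, the 15 leading genes by lowest ratio to the rest over libraries, the 10 with the highest mean CPM, and the 4 with the highest mean CPM of each list. Of the last 2 groups only some are described. Alternatives covered tool, normalization, filters, thresholds of the gate, thinning, doublets, free RNA, the replicate number and each library left out.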

Additional observations from a re-analysis of the deposited data

Results flagged for a closer look

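For 23 genes the difference between Dhx37-/- and WT was not the same in Fmo5-gate and Kcnb2-list nuclei by the test of the difference itself (edgeR interaction, adjusted over 16579 genes). The largest were Abtb2 with 4.11, Erbb4 with 3.81, Gpm6b with 3.63, Fyn with 3.33 and Septin6 with 3.27 on the log2 scale. These are differences between the 2 classes. In the gate alone the log2 fold changes of the 5 genes were 2.42 to 3.23, and none was called by edgeR. Members with at least 3 markers of a somatic cell type held a median of 70.9% of the gate's UMIs of these genes. Without such nuclei 0 of 15484 genes were called by edgeR, with 943 at an unadjusted p under 0.05. The median of the 21 genes still tested then went from 2.07 to 0.34, with Fyn at 1.79, Gpm6b at 1.43 and Erbb4 at -0.036. Abtb2 and Septin6 were too low to be tested. Ddb2 (2.78) and Auts2 (2.29), chosen after their values were seen, were not lower than before. For Ddb2, 1 nucleus held 26 of the 36 UMIs left in Dhx37-/- replicate 1. Auts2 had 11, 9, 53 and 61 UMIs left.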

How the results depend on the processing

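The count of genes called between genotypes in the gate, 0 in edgeR, was also 0 without TMM, at 5 of the 10 genes, with no UMI in the 7 genes, with no limit on them, from 500 UMIs, without doublets, after thinning and without members with somatic markers. It was 17 in DESeq2, 14 without a filter on low counts, 1 at 3 of the 10 genes, 296 (271 higher, 25 lower) without the upper limit on genes and 16 with free RNA subtracted, and it lay between 0 and 1803 with 1 library left out. The cause was not tested. With the replicate block it was 8 (7 higher, 1 lower). Nothing states that libraries of the same number are paired, and their deviations had a correlation of -0.109, so the block was also crossed, after seeing the data, which gave 54 (44 higher, 10 lower). The interaction count of 23 was 54 (47 higher, 7 lower) without TMM, 111 (69 higher, 42 lower) without a filter, 6 in DESeq2, 0 without nuclei with somatic markers, and between 3 and 293 with 1 library left out. Directions turned in the interaction without nuclei with somatic markers for Erbb4 (-0.036), Diaph2 (-0.057) and Mageb18 (-0.60). In the comparison of genotypes they turned for Dhx37 without WT replicate 2 (0.065, with -1.24 without Dhx37-/- replicate 2 at the other end) and for Prm3 with no UMI in the 7 genes (-0.17). The difference in the share of nuclei in the gate turned without Dhx37-/- replicate 1 and after thinning and was otherwise between 0.276 and 2.15 percentage points. The difference in median UMIs was 271.5 without the upper limit on genes, 341 at 3 of the 10 genes, 82.5 with no UMI in the 7 genes, 469.75 with no limit on them and 184.5 to 261.5 with 1 library left out. That in median genes was 40 with no UMI in the 7 genes and 226.75 with no limit on them. The sums rested on 273 to 473 members per library, and with 2 libraries per genotype no permutation p falls below 0.333.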
